A study of Danio rerio with 6 samples.

Results

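The mitochondrial ribosomal proteins were taken as every gene whose name in the deposited annotation begins with mrpl or mrps followed by a digit. This rule gave 69 of the 12398 distinct gene rows of the count table, all 69 annotated as protein coding and spread over 22 chromosomes, with at most 7 on any of them (chromosome 19). All 69 passed the minimum of 10 counts and were tested among 12381 genes. By the present names of their proteins, 43 belong to the large subunit and 25 to the small subunit. The remaining gene, mrps36, was named as a small-subunit protein, but its product is now placed in the 2-oxoglutarate dehydrogenase complex of the tricarboxylic acid cycle.

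RNA-seq was performed on full-thickness proximal (S1) intestine of adult zebrafish, collected 2 weeks after an operation. The fish were wild-type males of the Ekk strain, and no allele or drug separated the groups. In the short bowel syndrome (SBS) group the middle portion of the intestine was taken out, the distal end was tied and the proximal end was left as an open stoma, while the sham group had only the opening of the belly. The samples with the most concentrated RNA were the ones sequenced, with 3 deposited columns per group. SBS replicates 1 and 2 had columns that were equal in 12488 of 12488 rows and were counted as 1 library, so that 3 sham libraries stood against 2 SBS libraries (replicates 1 and 3, here SBS 1 and SBS 3). The study describes SBS replicate 2 as a library of its own, whose separate counts were not analysed here. Its methods speak of 3 fish per group for sequencing, and replicates were treated as separate animals.

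Mitochondria keep a ribosome of their own, built from RNAs encoded in mitochondrial DNA and from proteins that are encoded in the nucleus, made in the cytosol and imported. It translates the few messages of mitochondrial DNA, which encode core subunits of the respiratory chain and of ATP synthase. Part of its proteins have a bacterial counterpart and the others arose in mitochondria. In the gut, mitochondrial ATP drives the pumps with which enterocytes absorb nutrients.

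The gene counts summed to 38728394 to 47142289 reads in sham, 20377652 in SBS 1 and 38867364 in SBS 3. Of these, 52163, 59242 and 52658 reads fell on the 69 genes in sham 1, 2 and 3, 31468 in SBS 1 and 71981 in SBS 3. The member with the fewest reads still had 98 in the shallowest library, and the median member had between 442 and 1001 reads per library. Every count of SBS 1 is even, so whether each of its counts stands for 1 read is not known. Halving the counts of SBS 1 left the family's median log2 fold change at -0.33. The scaling of libraries takes up such a change, so this value cannot tell what a count of SBS 1 stands for.

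The family was measured at moderate levels in sham intestine. Per kilobase of transcript, the sham mean of its members ran from 7.48 RPKM for mrps33, a small-subunit protein, to 75.6 RPKM for mrpl32, a large-subunit protein with a bacterial counterpart, with a median of 22.9 RPKM beside 5.71 RPKM over all genes tested. After mrpl32 (75.6 ± 13.5 RPKM, SD, n = 3) the highest sham levels were those of mrps36 (69.4 ± 8.11 RPKM), mrpl38 (56.7 ± 3.27 RPKM), mrpl20 (52.7 ± 6.28 RPKM), mrpl36 (52.2 ± 3.97 RPKM), mrpl30 (49.1 ± 13.5 RPKM) and mrpl12 (44.6 ± 3.52 RPKM). Neighbours in this order lay within a few SDs of each other. The order of mrpl32 and mrps36, and that from mrpl38 to mrpl12, are not resolved by 3 libraries. In sham 2, for example, mrps36 (73.1 RPKM) was above mrpl32 (62.6 RPKM), and mrpl12 (48.1 RPKM) was above mrpl30 (35.5 RPKM). The family's transcripts were short, with a median length of 923 bases (399 to 2198) against 1879 over all genes.

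No member passed the edgeR quasi-likelihood test between SBS and sham. With the study's fold limit (a log2 fold change 1.5 or more in size, besides adjusted p under 0.05) 0 of 69 members were called, where 4.55% of all genes tested were, and with adjusted p alone 0 of 69 passed, where 4.76% of all genes did. At an unadjusted p under 0.05, 15 members (21.7%) were lower in SBS, beside 13.1% of all genes, and 1 member (1.45%), mrps18a, was higher, beside 15.7% of all genes. The smallest adjusted p of a member was 0.088, that of mrpl32. With 3 against 2 libraries an exact permutation test of a single gene cannot give a two-sided p below 0.2.

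Most members nevertheless lay below their sham values once libraries were scaled by the trimmed mean of M-values (TMM). The fitted log2 fold change was below 0 for 57 of 69 members (82.6%, beside 50% of all genes), with a median of -0.33 for the family and 0.00 for all genes tested, although scaling by library size alone turned the family's median to 0.45. Members ranged from -1.06 for mrpl32 to 0.71 for mrps18a. In 31 members (44.9%) both SBS libraries lay below all 3 sham libraries in TMM-scaled CPM, the read count per library size, beside 24.3% of all genes, and in 4 members (5.8%) both lay above, beside 22.6% of all genes.

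**Figure D1:**
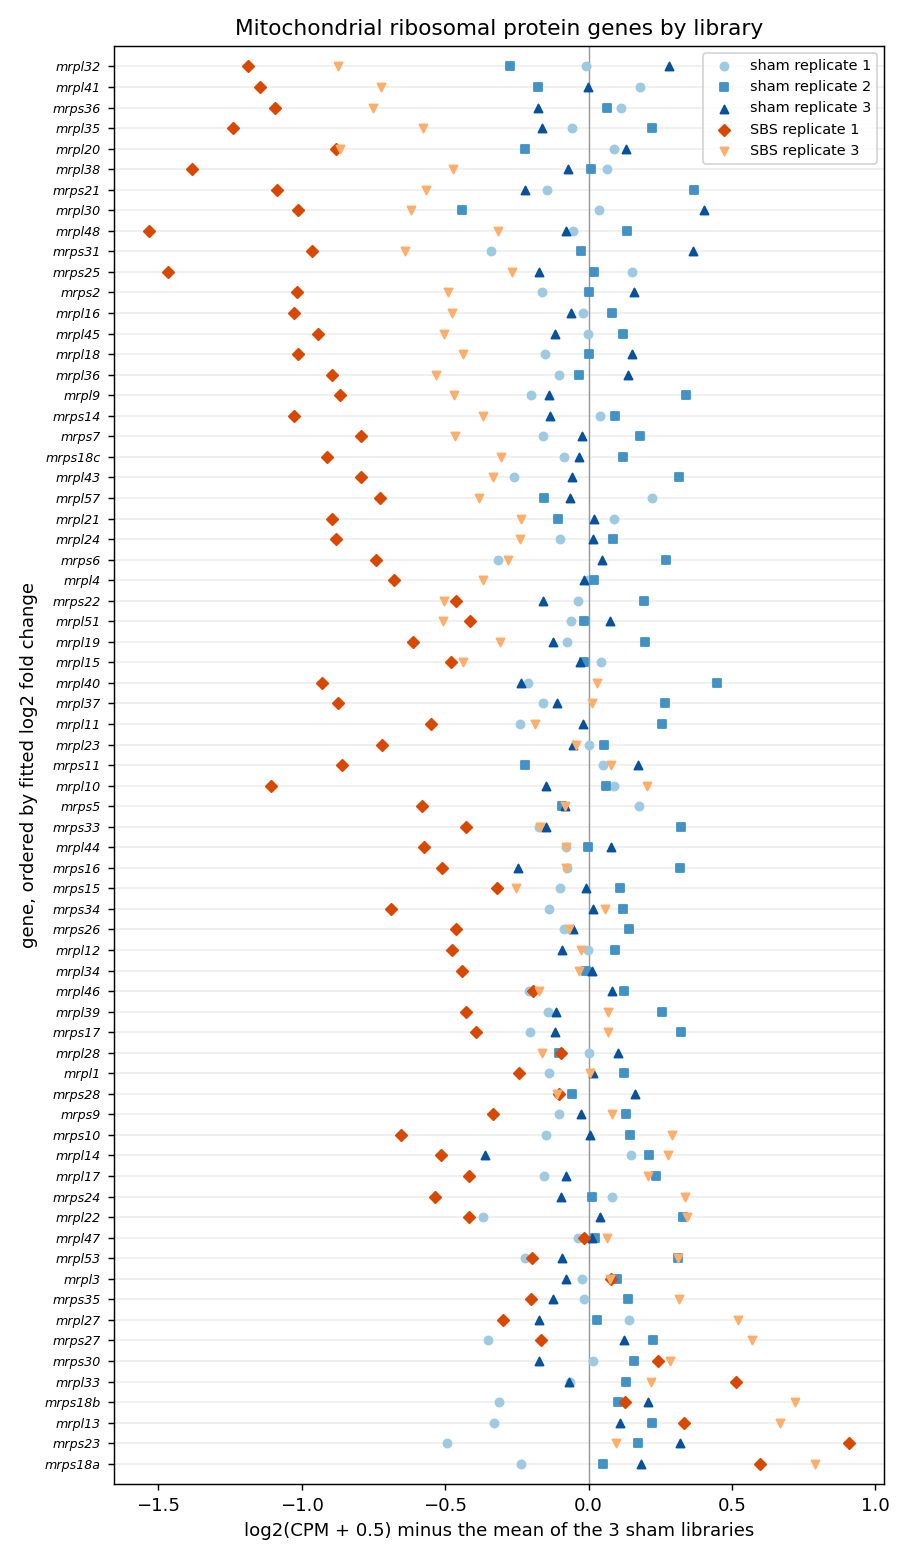
Each row is a member, ordered by its fitted log2 fold change, and each point is a library's log2(CPM + 0.5) minus the mean of the 3 sham libraries, on TMM-scaled values. SBS 1 lies lowest in most rows and SBS 3 lies nearer the sham libraries, with mrpl32 (log2 fold change -1.06) at the top and mrps18a (0.71) at the bottom; by library size alone the family's median fold change would be 0.45 in place of -0.33.

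The SBS libraries did not contribute alike. Relative to the sham mean, the median member stood at -0.58 on the log2 CPM scale in SBS 1 and at -0.16 in SBS 3, while the sham libraries stood at -0.07, 0.11 and -0.03. SBS 1 was below all sham libraries in 56 members (81.2%, beside 40.9% of all genes) and SBS 3 in 33 (47.8%, beside 35% of all genes). In 25 members (36.2%, beside 16.7% of all genes) only SBS 1 was below. In 2 (2.9%, beside 10.8%) only SBS 3 was, and in 11 (15.9%, beside 48.3%) neither was. SBS 1 lay under SBS 3 in 62 of 69 members (89.9%, beside 52.5% of all genes). Without SBS 3 the family's median log2 fold change was -0.60, beside -0.09 over all genes. Without SBS 1 it was -0.17, beside -0.06 over all genes. In each of these edgeR fits the lone SBS library was assumed to vary like the sham libraries. The size of the difference therefore rests largely on SBS 1, the shallower library. Among themselves the sham libraries were close, with a median SD of 0.16 per member on the log2 scale beside 0.26 over all genes.

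The large-subunit members with the lowest fold changes included several with a bacterial counterpart, a class that holds 28 of the 43 large-subunit members. Under TMM scaling the median log2 fold change of those 28 was -0.36, beside -0.42 for the 15 mitochondria-specific ones. For mrpl32, whose product in yeast and mouse is matured by the m-AAA protease before it joins the ribosome, the CPM values were 46.3, 38.5 and 56.7 in sham 1, 2 and 3, 20.2 in SBS 1 and 25.2 in SBS 3. Its lowest sham library was still well above both SBS libraries, and the log2 fold change was -1.06 (SE 0.29, adjusted p = 0.088 by the edgeR quasi-likelihood test). For mrpl20, the counterpart of bacterial L20, an early rRNA-binding protein, the values were 35.2, 28.3 and 36.2 CPM in sham, 17.7 in SBS 1 and 17.9 in SBS 3. Here the SBS libraries were nearly equal and clear of the sham range (log2 fold change -0.90, SE 0.25, edgeR adjusted p = 0.090). For mrpl35, the counterpart of bacterial L35, the values were 18.6, 22.7 and 17.2 CPM in sham, 7.91 in SBS 1 and 12.8 in SBS 3. The groups did not overlap, and SBS 1 was the lower of the SBS libraries (log2 fold change -0.91, SE 0.32, edgeR adjusted p = 0.13). For mrpl36, the counterpart of the small bacterial protein L36, sham values were 28.9, 30.3 and 34.2 CPM against 16.5 in SBS 1 and 21.3 in SBS 3, again without overlap (log2 fold change -0.72, SE 0.25, edgeR adjusted p = 0.14).

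Mitochondria-specific proteins of the large subunit stood beside them. For mrpl41 the values were 16.6, 12.9 and 14.6 CPM in sham, 6.34 in SBS 1 and 8.67 in SBS 3. Both SBS libraries were under the lowest sham library (log2 fold change -0.97, SE 0.29, edgeR adjusted p = 0.10). For mrpl38, a protein of the central protuberance that faces the small subunit, the values were 71.4, 68.7 and 65.1 CPM in sham, 25.9 in SBS 1 and 49.1 in SBS 3. The sham libraries were tightly grouped, while the SBS libraries differed from each other by more than SBS 3 differed from the sham (log2 fold change -0.87, SE 0.34, edgeR adjusted p = 0.16). For mrps36, which belongs to neither subunit, the values were 62.4, 60.3 and 51.0 CPM in sham, 26.7 in SBS 1 and 34.0 in SBS 3. It was clear of the sham range (log2 fold change -0.93, SE 0.26, edgeR adjusted p = 0.092). Without it the other 68 genes had a median log2 fold change of -0.33. Of them 30 had both SBS libraries below the sham range, beside 24.3% of all genes.

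In 4 large-subunit members, SBS 1 and SBS 3 were higher than every sham library. Of these mrps18a, a homologue of bacterial S18 that is built into the large subunit despite its name, was measured at 10.9, 13.4 and 14.7 CPM in sham, 19.8 in SBS 1 and 22.7 in SBS 3. It had the highest fold change of the family (log2 fold change 0.71, SE 0.26), which did not pass (edgeR adjusted p = 0.14). For mrpl13, the counterpart of bacterial L13, the values were 9.06, 13.5 and 12.5 CPM in sham, 14.6 in SBS 1 and 18.6 in SBS 3, a narrow separation (log2 fold change 0.51, SE 0.29, edgeR adjusted p = 0.30). For mrpl33, the counterpart of bacterial L33, sham values were 19.8, 22.8 and 19.7 CPM against 29.8 in SBS 1 and 24.2 in SBS 3. This was a member in which SBS 1 was the higher SBS library (log2 fold change 0.38, SE 0.24, edgeR adjusted p = 0.35). The mitochondria-specific mrps30, also of the large subunit, had 20.2, 22.4 and 17.7 CPM in sham, 23.8 in SBS 1 and 24.5 in SBS 3. These SBS values were close to the highest sham library (log2 fold change 0.26, SE 0.24, edgeR adjusted p = 0.50).

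**Figure D2:**
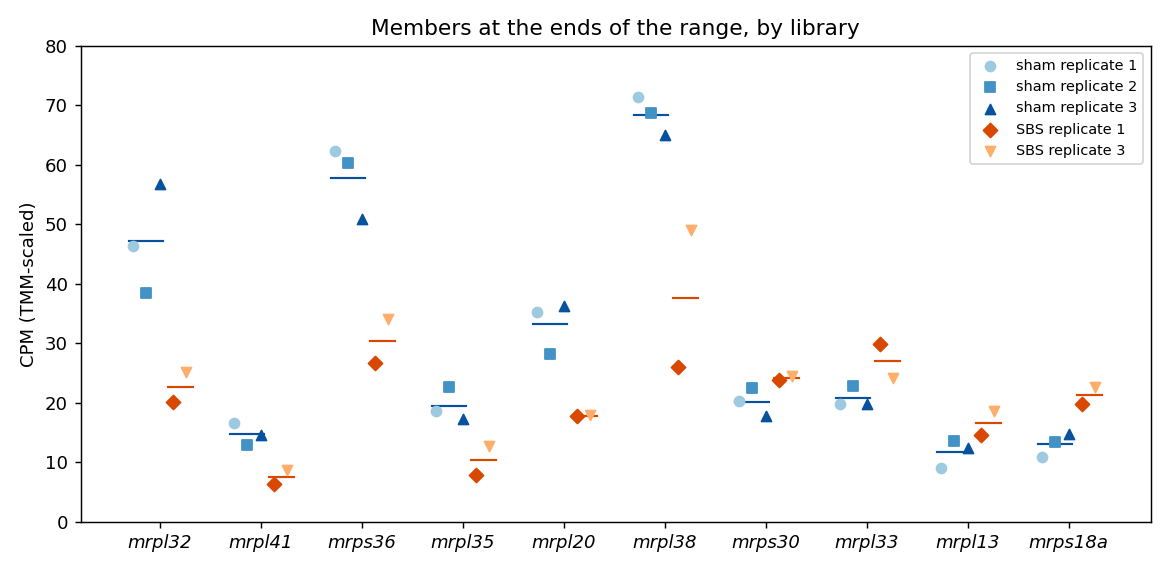
TMM-scaled CPM of the 10 members at the ends of the range whose groups do not overlap; each point is a library and each short line the mean of its group (3 sham, 2 SBS libraries). The 6 on the left had SBS libraries below the sham range, as for mrpl20 with 17.7 and 17.9 CPM against 28.3 to 36.2, and the 4 on the right had them above, as for mrps18a with 19.8 and 22.7 CPM against 10.9 to 14.7.

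The next members by the same rule show how thin a separation could be. For mrps15, the counterpart of bacterial S15, an rRNA-binding protein of the small subunit, the values were 30.2, 35.0 and 32.3 CPM in sham, 25.9 in SBS 1 and 27.1 in SBS 3 (log2 fold change -0.29, SE 0.23). For mrpl34, the counterpart of bacterial L34, sham values were 16.6, 16.6 and 16.8 CPM against 12.2 in SBS 1 and 16.3 in SBS 3 (log2 fold change -0.23, SE 0.25). SBS 3 was thus almost at the sham level of mrpl34. The well-expressed mrpl12, counterpart of the bacterial L7/L12 stalk protein that recruits translation factors, overlapped between groups, with 45.3, 48.4 and 42.5 CPM in sham, 32.5 in SBS 1 and 44.5 in SBS 3 (log2 fold change -0.24, SE 0.26).

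The members nearest 0 were proteins of the exit tunnel and of the mRNA entry side. For mrpl47, the counterpart of bacterial L29 at the tunnel exit, all 5 libraries lay between 24.3 and 26.0 CPM (log2 fold change 0.02, SE 0.22). For mrpl22, the counterpart of bacterial L22 in the tunnel wall, sham values were 6.50, 10.8 and 8.79 CPM against 6.27 in SBS 1 and 11.0 in SBS 3 (log2 fold change -0.01, SE 0.38). For mrps24, the counterpart of bacterial S3, sham values were 15.6, 14.9 and 13.7 CPM against 9.999 in SBS 1 and 18.7 in SBS 3 (log2 fold change -0.04, SE 0.33). In the last 2 genes the SBS libraries lay on opposite sides of the sham range, and the sign of the fitted value depended on the scaling.

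By subunit the values were as follows. Of the 43 large-subunit members, 35 were below 0 with a median log2 fold change of -0.38, 21 had both SBS libraries below the sham range and 4 had both above. Of the 25 small-subunit members, 21 were below 0 with a median of -0.31, 9 had both SBS libraries below and 0 had both above. Over all genes 50% were below 0, 24.3% had both SBS libraries below the sham range and 22.6% had both above. The 43 members with a bacterial counterpart had a median of -0.33 and the 25 mitochondria-specific members a median of -0.32. These classes follow the present protein names, by which mrps18a and mrps18b count as mitochondria-specific although they are homologues of bacterial S18. All 15 small-subunit members classed with a bacterial counterpart were below 0, from -0.86 to -0.04 (under TMM scaling). Counting mrps18b, at 0.45, among them would end this. Of the 15, 9 overlapped between groups, as did 6576 of 12381 genes. No difference between these classes was tested.

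Parts of the ribosome are described here from groupings made after the values were known. Of 6 proteins around the exit tunnel (mrpl17, mrpl22, mrpl23, mrpl24, mrpl45 and mrpl47), 5 were below 0, from -0.73 for mrpl45, a mitochondria-specific protein near the tunnel exit, to 0.02 for mrpl47. For the stalk and its base 3 proteins were taken (mrpl10, mrpl11 and mrpl12), which lay between -0.38 and -0.24, and each overlapped between groups. The mitochondria-specific large-subunit protein mrpl53, at 0.07, was left out of this grouping, which is not a complete list of that part. Of 6 proteins of the central protuberance (mrpl18, mrpl27, mrpl38, mrpl40, mrpl46 and mrpl48), 5 were below 0, from -0.87 to 0.17. In 3 of them both SBS libraries lay below the sham range, beside 24.3% of all genes. The homologues of bacterial S18 did not move alike, at 0.71 for mrps18a, 0.45 for mrps18b and -0.60 for mrps18c, the closest relative of the bacterial protein in the small subunit, and only mrps18a and mrps18c were free of overlap. The proteins are built into the ribosome in fixed proportions, which a transcript level does not show.

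The order of levels within the family was kept more closely among sham libraries than between groups. Over the 69 members, Pearson's r of log2 RPKM was between 0.93 and 0.95 for pairs of sham libraries, 0.82 for the SBS pair and between 0.71 and 0.85 for a sham with an SBS library. These are descriptions over members that share transcript length, and SBS 1 had the fewest reads. By mean RPKM, mrps10, a small-subunit protein with a bacterial counterpart, was eighth in sham and first in SBS (41.6 and 39.3 RPKM), while mrpl32 was first in sham and the third in SBS (75.6 and 37.3 RPKM). By these means the highest levels were closer together in SBS, where no member's mean exceeded 39.3 RPKM. The SBS mean of mrps10 joined unlike values, 27.0 RPKM in SBS 1 and 51.6 RPKM in SBS 3. The highest member was mrps10 in SBS 3 but mrpl28, at 36.0 RPKM, in SBS 1. Over the members the log2 fold change had an r of -0.30 with the average level (beside -0.20 over all genes) and of 0.21 with log2 length (beside -0.02 over all genes).

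**Figure D3:**
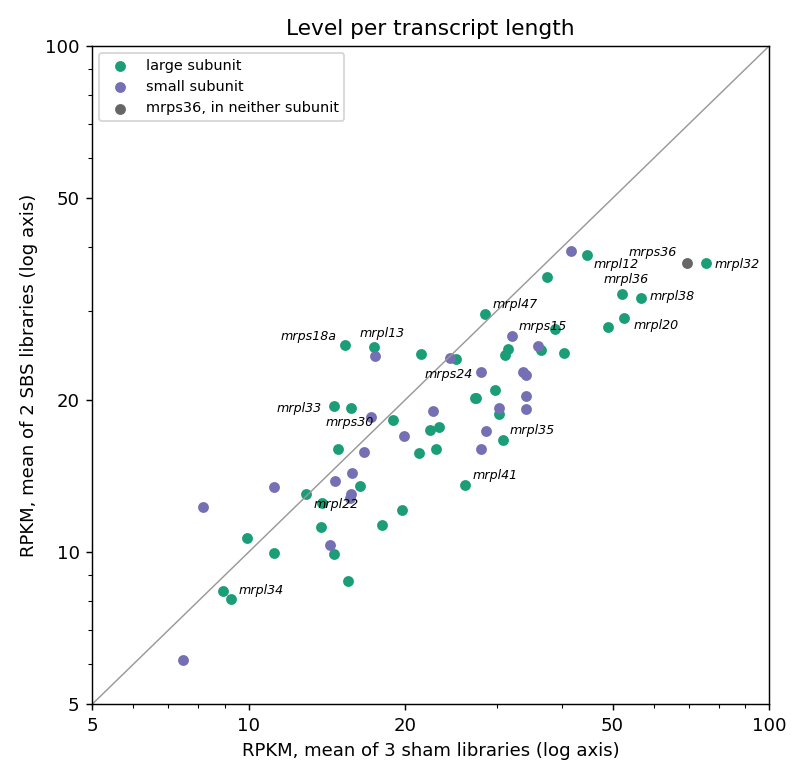
Mean deposited RPKM of each member in the 2 SBS libraries against the 3 sham libraries, on log axes, with the line of equal level and named members marked. Most points lie under the line, those with the highest sham level among them (mrpl32 at 75.6 and 37.3 RPKM), while mrps18a lies above it (15.3 and 25.6 RPKM); the deposited RPKM carry a TMM-type scaling, and by library size alone most members would lie above the line.

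Under TMM scaling the family's median difference was small beside those of the cytosolic ribosomal proteins and the proteasome subunits. It was near that of the oxidative phosphorylation subunits. The 81 cytosolic ribosomal protein genes had a median log2 fold change of -1.32, with 78 of 81 in which both SBS libraries lay below the sham range (24.3% of all genes), and the 44 proteasome subunit genes a median of 1.12, with 37 of 44 above it (22.6% of all genes). None of these genes passed at adjusted p under 0.05 in the edgeR quasi-likelihood test under TMM scaling. At an unadjusted p under 0.05 in that test, the cytosolic ribosomal protein genes had 75 lower, beside 13.1% of all genes. The proteasome genes had 35 higher at that threshold, beside 15.7% of all genes. The 82 nuclear-encoded subunits of oxidative phosphorylation, part of whose partners the mitochondrial ribosome makes, had a median of -0.29, and 20 of 82 had both SBS libraries below the sham range, a share near the 24.3% of all genes, and 2 above. In SBS 1 their median stood at -0.80 relative to sham and in SBS 3 at 0.09 (under TMM scaling). The other families compared here also had a lower median in SBS 1 than in SBS 3. These medians were -0.58 and -0.16 for the mitochondrial ribosomal proteins and -1.504 and -1.092 for the cytosolic ones. For the proteasome subunits they were 0.63 and 1.46, so a lower SBS 1 was not particular to the mitochondrial families.

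A difference between families within a library does not depend on the scaling of libraries. The median log2 CPM of the mitochondrial ribosomal proteins was below that of the cytosolic ones by 6.80, 6.01 and 6.83 in sham 1, 2 and 3, by 5.49 in SBS 1 and by 5.50 in SBS 3. The gap was smaller in both SBS libraries than in any sham library, by 1.05 on average. Against the oxidative phosphorylation subunits the gap was 2.48, 2.34 and 2.46 in sham, 2.04 in SBS 1 and 2.52 in SBS 3, so the SBS values lay on either side of the sham range. Against the proteasome subunits it was 1.32, 1.39 and 1.41 in sham, 2.48 in SBS 1 and 2.85 in SBS 3, wider in both SBS libraries. With 3 against 2 libraries none of these gaps could reach significance in an exact test.

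**Figure D4:**
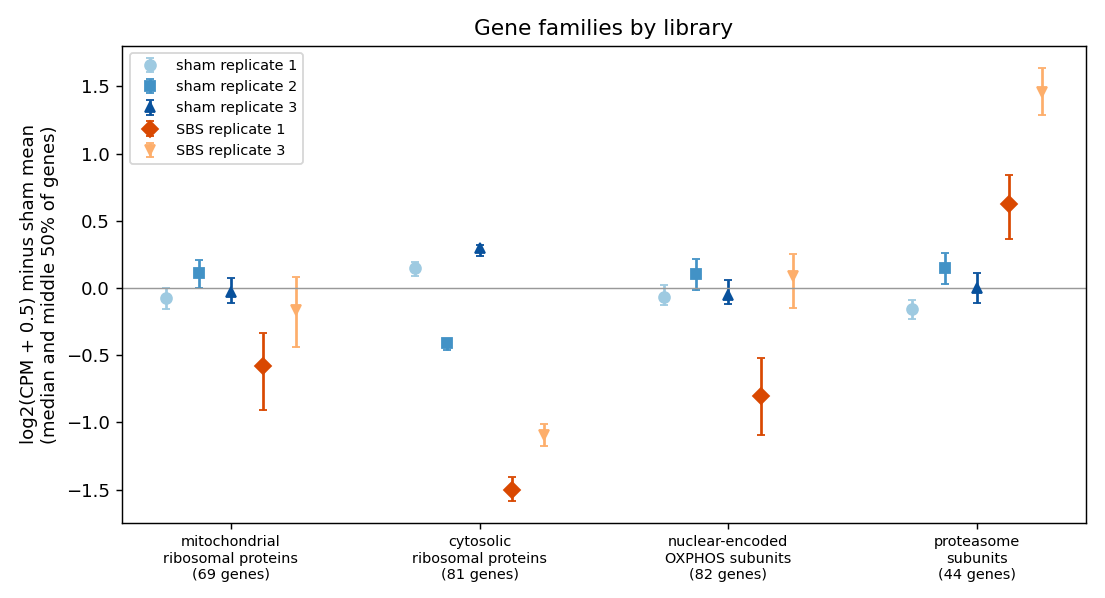
Median (point) and middle 50% of genes (bars) of log2(CPM + 0.5) minus the sham mean, per library, for 4 gene families, on TMM-scaled values. The mitochondrial ribosomal proteins stood at -0.58 in SBS 1 and -0.16 in SBS 3, between the cytosolic ribosomal proteins (-1.504 and -1.092) and the proteasome subunits (0.63 and 1.46); the distances between families hold within a library under any scaling, while their side of 0 does not.

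The direction of the family depended on how libraries were scaled. The TMM factors were 0.773, 0.919 and 0.707 for sham 1, 2 and 3, 1.502 for SBS 1 and 1.326 for SBS 3. As a plain share of reads on genes, the 69 members held 0.117%, 0.153% and 0.112% in sham, 0.154% in SBS 1 and 0.185% in SBS 3, so that the SBS shares were the higher ones, by little between sham 2 and SBS 1. By library size alone the median log2 fold change was 0.45 for the family and 0.82 for all genes tested, a difference of -0.37 between family and median gene. This difference was -0.34 with DESeq2 size factors and -0.33 with upper-quartile factors or TMM. It moved more with the libraries than with their scaling, to -0.11 without SBS 1 and -0.51 without SBS 3, and was -0.15 in the RUVg fit. Spike-in RNAs took between 0.663% and 0.809% of the counts in sham, 1.72% in SBS 1 and 2.43% in SBS 3. They were not used for scaling, and the family's direction under such a scaling was not examined. The mix added to each group is not given in the sources used here.

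**Figure D5:**
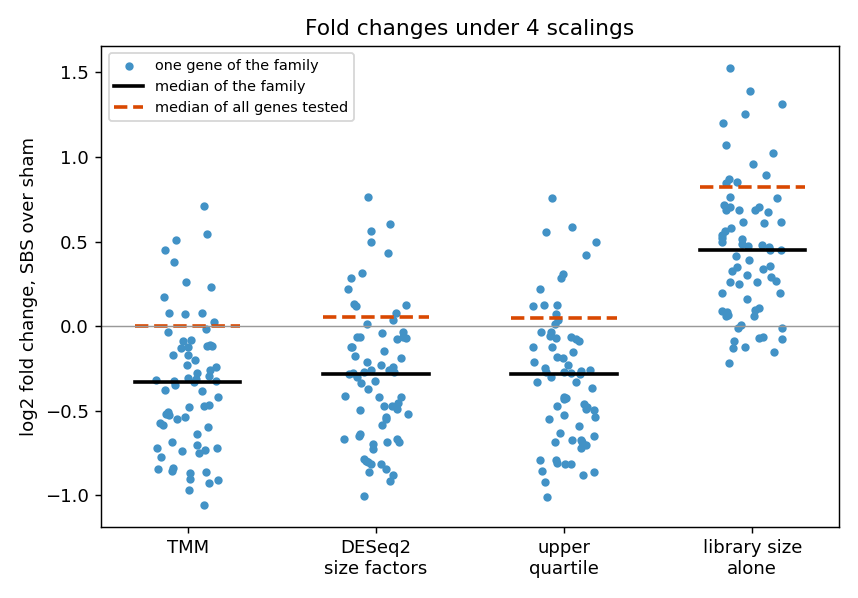
Fitted log2 fold changes (SBS over sham) of the 69 members, each a point, under 4 scalings of the libraries, with the family's median (solid line) and the median of all genes tested (dashed line). The family's median is below that of all genes under each of the 4, at -0.33 with TMM but at 0.45 by library size alone, where all genes have a median of 0.82.

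Other tests passed few members at adjusted p under 0.05. In the edgeR likelihood ratio test 0 members were lower, beside 7.83% of all genes, and 0 higher, beside 11.3%. In the RUVg fit with 1 factor of unwanted variation 0 members were lower, beside 8.99%, and 0 higher, beside 11.5%. At an unadjusted p under 0.05 the likelihood ratio test had 6 members lower (8.7%, beside 13.1% of all genes) and 0 higher (beside 17.3%). The RUVg fit had 4 lower (5.8%, beside 14.3%) and 1 higher (1.45%, beside 16.5%) at that threshold. In the DESeq2 Wald test 4 members passed as lower without the fold limit, beside 9.86% of all genes, which were mrpl32, mrps36, mrpl20 and mrpl41, and 0 higher, beside 12.5%. Of these mrpl32 had a DESeq2 adjusted p of 0.019, beside 0.052 in the likelihood ratio test and 0.059 in the RUVg fit.

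Genes that work with the mitochondrial ribosome were read from lists fixed by function. Of 8 mitoribosomal proteins carried under other names, 5 were measured, with a median log2 fold change of -0.56. In 2 of the 5 both SBS libraries lay below the sham range, beside 24.3% of all genes. The small-subunit proteins ptcd3, chchd1 and dap3 stood at -0.64 (SE 0.28), -0.61 (SE 0.26) and -0.56 (SE 0.34) under TMM scaling, and aurkaip1 at 0.15 (SE 0.26). The fifth, lactb, at 0.31 (SE 0.34), was once given a mitoribosomal name but is a mitochondrial serine protease-like protein, and none of these passed. Of 20 translation factors 14 were measured with a median of -0.35, and 1 passed: taco1, a translational activator of a cytochrome c oxidase subunit, had 1, 0 and 0 reads in sham, 28 in SBS 1 and 56 in SBS 3. Its ratio of SBS to sham was 106 with a 95% counting interval of 18.4 to 4218 (exact binomial). This interval takes each deposited count as 1 read, although all counts of SBS 1 are even. The edgeR adjusted p of taco1 was 0.035. The elongation factor tufm, the most abundant of the list, stood at 103, 128 and 106 CPM in sham, 67.2 in SBS 1 and 96.5 in SBS 3 (log2 fold change -0.46, SE 0.29), and the membrane insertase oxa1l at -0.43 (SE 0.24). Neither tufm nor oxa1l passed.

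Of 20 mitochondrial aminoacyl-tRNA synthetases 12 were measured, with a median of -0.19, and 1 fell. This was rars2, the mitochondrial arginyl-tRNA synthetase, with 13.1, 8.21 and 13.7 CPM in sham against 2.94 in SBS 1 and 3.18 in SBS 3 (log2 fold change -1.93, SE 0.36, edgeR adjusted p = 0.045). The most abundant of the list, kars and hars, serve both the cytosol and mitochondria and stood at 0.60 (SE 0.29) and -0.01 (SE 0.24). Of 37 assembly factors and rRNA modifiers 22 were measured, with a median of -0.27 and 0 passing in either direction. At an unadjusted p under 0.05 in the edgeR test 1 of the 22 was lower and 0 higher, beside 13.1% and 15.7% of all genes. The acyl carrier proteins ndufab1a and ndufab1b, shared by mitoribosome assembly, complex I and fatty acid synthesis, stood at 0.29 (SE 0.30) and -0.47 (SE 0.36).

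Among the lists of mitochondrial gene expression, that for mitochondrial transcription and RNA processing stood lowest under TMM scaling. Of its 35 genes 21 were measured, with a median log2 fold change of -0.81, beside 0.00 for all genes. In 13 both SBS libraries lay below the sham range, beside 24.3% of all genes. At an unadjusted p under 0.05 in the edgeR test 9 of the 21 were lower and 0 higher, beside 13.1% and 15.7% of all genes. By library size alone the median of all genes was 0.82, and the value of this list under that scaling is not given here. The gene that passed was trmt10c, a subunit of the mitochondrial RNase P that frees tRNAs from the primary transcript. It had 23.7, 19.7 and 22.3 CPM in sham against 8.43 in SBS 1 and 7.29 in SBS 3 (log2 fold change -1.48, SE 0.26, edgeR adjusted p = 0.038). Its partner in that enzyme, hsd17b10, had 72.0, 134 and 79.6 CPM in sham against 16.7 and 45.7 in SBS 1 and SBS 3 (log2 fold change -1.61, SE 0.54, edgeR adjusted p = 0.13). The RNA-stabilising protein lrpprc stood at -0.86 (SE 0.39). Of 14 regulators of mitochondrial biogenesis 10 were measured with a median of -0.35 and 0 passing. At an unadjusted p under 0.05 in the edgeR test 3 of the 10 were lower and 0 higher, beside 13.1% and 15.7% of all genes. The regulator mycb was closest to passing (130, 264 and 331 CPM in sham, 52.5 and 40.5 in SBS, edgeR adjusted p = 0.057), and yy1a stood at -0.29 (SE 0.24). When any of the sham libraries was left out, 0 of all genes passed in the edgeR test, so that taco1, rars2 and trmt10c passed only with all 3. The messages of mitochondrial DNA were not analysed here.

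The make-up of the libraries differed along with these values. In bulk intestine, fewer cells of a type and less RNA per cell cannot be told apart. Absorptive enterocyte markers (22 of 25 listed were measured) summed to between 164280 and 234480 CPM in sham, 17785 in SBS 1 and 55235 in SBS 3. In 18 of 22 enterocyte markers both SBS libraries lay below the sham range, beside 24.3% of all genes. At adjusted p under 0.05 in the edgeR test 3 of them fell and 2 rose, the latter being apoa1b (0.903, 10.4 and 3.09 CPM in sham, 5095 and 1637 in SBS), an apolipoprotein gene, and slc6a19b (0.350, 0.225 and 0.0900 CPM in sham, 409 and 643 in SBS), an amino acid transporter gene. The summed enterocyte markers were lower in SBS 1 than in SBS 3, and so were the sums of all lists below except the hepatocyte markers. For the leukocyte markers this held only with mpx counted. Of 34 hepatocyte markers 27 were measured, 21 higher and 0 lower at adjusted p under 0.05. They summed to between 10664 and 17058 CPM in sham, 27225 in SBS 1 and 9357 in SBS 3. The intestinal apolipoprotein gene apobb.1 alone had 10470 to 16710 CPM in sham, 2411 in SBS 1 and 4171 in SBS 3. Without apobb.1 the sums were 190.7 to 351.8 CPM in sham, 24810 in SBS 1 and 5186 in SBS 3. In 24 of the 27 both SBS libraries lay above the sham range and in 2 below it, beside 22.6% and 24.3% of all genes. The marker c3b.1 was at 0 in all sham libraries, and 10 markers were under 1 CPM there.

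Leukocyte markers (10 of 15 measured) summed to between 202 and 412 CPM in sham, 1817 in SBS 1 and 11558 in SBS 3, of which mpx alone made up 11100 in SBS 3. Without mpx the sums were 198.7 to 403.5 CPM in sham, 1532 in SBS 1 and 459.9 in SBS 3. Smooth muscle markers (6 of 9 measured) summed to between 2552 and 6064 CPM in sham, 819 in SBS 1 and 4239 in SBS 3. Exocrine pancreas markers (15 of 19 measured) ran from 1810 to 47879 CPM across the sham libraries and lay within that range in SBS, at 3039 and 9763 CPM. Cell cycle genes (20 of 21 measured) summed to between 105 and 466 CPM in sham, 487 in SBS 1 and 944 in SBS 3. Goblet and enteroendocrine markers (10 of 13 measured) summed to between 153 and 242 CPM in sham, 348 in SBS 1 and 521 in SBS 3. The part of these cell types in the values of the mitochondrial ribosomal proteins was not tested.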

How the data were processed

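Per the labels, libraries were made from total RNA of full-thickness intestine with a stranded kit and spike-in RNAs. The authors aligned reads with STAR and counted them per gene with HTSeq, and the submitters' processing notes also name FastQC, Trimmomatic and edgeR. Groups were taken from the sample labels, although the series' design text names feeding states. The strand setting of the counting is not given. The notes give the build GRCz10 (danRer10), the methods an earlier one, so no coordinates are printed. The deposited table holds whole counts and the authors' RPKM. Tested on the file, deposited RPKM were counts per kilobase and library size multiplied by a constant per library (1.35, 1.15 and 1.45 in sham replicates 1, 2 and 3, 0.716 and 0.797 in SBS replicates 1 and 3). The table's columns of the authors' own comparison (log2 fold change, log2 CPM, likelihood ratio, p-value and adjusted p-value, as deposited) were not used.

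Of 12488 rows, 70 spike-in rows and 20 repeats of a gene name were left out, leaving 12398 genes, of which 17 had under 10 counts. Counts were fitted in edgeR 4.0.16 (R 4.3.3) with TMM scaling and the quasi-likelihood test of SBS against sham, Benjamini-Hochberg adjusted over 12381 genes. A gene was called at adjusted p under 0.05 with a log2 fold change of at least 1.5 in size, and passed or changed at adjusted p under 0.05 alone. CPM are TMM-scaled. SBS replicate 2, equal to SBS replicate 1, was left out. Alternatives were DESeq2 1.42.0, limma 3.58.1 on log2(RPKM + 1) or log2(RPKM + 0.1), RUVg with 1 factor (all but the 5000 genes with the smallest p as controls), other scalings and filters, a replicate block, each library left out, all 6 columns, and SBS replicate 1 halved. The fits without mrps36 and the gaps to the oxidative phosphorylation and proteasome subunits were added after seeing the data. The code was checked on simulated counts. Intervals cover counting error only.

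Named members were the 6 with the highest mean RPKM, the 6 largest and the 6 smallest log2 fold changes among members without overlap between groups, and the 3 nearest 0. In the related lists, genes that passed and the 2 most abundant were named. Members, lists and tests were chosen with earlier results of these data known. The pattern for cytosolic ribosomal proteins was corrected to leave out S6 kinases, and that for oxidative phosphorylation to leave out assembly factors, once the table was seen. Of 79 proteins in the table of roles, 10 were not analysed here. Sequences and the planned promoter motif search were not used here.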

Additional observations from a re-analysis of the deposited data

How the results depend on the processing

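The family's median log2 fold change (-0.33) was 0.45 by library size alone, -0.15 with the RUVg fit, -0.42 with all 6 columns, and between -0.60 (without SBS replicate 3) and -0.17 (without SBS replicate 1) when a library was left out. The count called (0 in either direction) was 1 higher by library size alone, and stayed 0 in either direction with any sham library left out. The family's counts called or passing are not given for fits that leave 1 SBS library, whose spread is then taken from sham. Counts of passing members are to be read beside those of all genes. By library size alone 2590 of 12381 genes passed as higher. With all 6 columns 1445 of 12398 genes passed as lower and 1697 as higher. With DESeq2 9.86% of all genes passed as lower. Members passing at adjusted p under 0.05 (0) were 4 higher by library size alone, 1 higher and 13 lower with all 6 columns, which counts a library again, 4 lower with DESeq2, and 0 to 9 lower with a library left out (9 without SBS replicate 3). Members with both SBS libraries above the sham range (4) were 30 by library size alone (54.2% of all genes) and 4 to 14 with a library left out (14 without SBS replicate 1, beside 34.5% of all genes), and those below it (31) were 1 by library size alone (7.64% of all genes) and 32 to 56 with a library left out (56 without SBS replicate 3, 33 without SBS replicate 1), beside 27.4% to 41% of all genes. Whether replicate numbers pair the samples cannot be told, because the deviations of 2 SBS libraries from their mean mirror each other. The r of deviations was -0.11 for number 1 and -0.12 for number 3, and 0.11 and 0.12 with the SBS numbers exchanged. With the replicate block the median was -0.33 and 0 members passed. Over all genes 0 passed with the block, and 0 when any of the sham libraries was left out. Signs of single genes turned by library size alone for chchd1 (0.19), dap3 (0.21), ptcd3 (0.15), mrpl12 (0.56), mrpl34 (0.58), mrpl36 (0.10), mrps15 (0.52), mrpl22 (0.76) and mrps24 (0.76). With a library left out, aurkaip1 ran from -0.0792 to 0.3517, lactb from -0.1069 to 0.6341 and mrpl47 from -0.0168 to 0.0772, each below 0 only without SBS replicate 3, mrpl22 ran from -0.4723 to 0.3312 and mrps24 from -0.5586 to 0.3449. For mrpl22 the value was 0.0336 with DESeq2 size factors, 0.0345 with the Wald test, 0.0358 with upper-quartile factors, 0.20 with RUVg and 0.13 with the replicate block. For mrps24 it was 0.0116, 0.0125, 0.0144 and 0.22 with the first 4 of these. The remaining values of named members were 351 on the same side and 18 that passed where the reported fit did not. The cause of these shifts was not tested. With 2 distinct SBS libraries, 1 of them shallow, the spread within SBS is poorly known.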
